A study of Mus musculus with 4 samples.

Results

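Hexokinase, phosphofructokinase, aldolase and lactate dehydrogenase are 4 glycolytic steps for which the mouse genome encodes isozymes, and 9 isozyme genes were examined here, *Hk1*, *Hk2*, *Pfkl*, *Pfkm*, *Pfkp*, *Aldoa*, *Aldoc*, *Ldha* and *Ldhb*. They were taken by gene symbol, and all 9 were found among 24347 gene rows. The transcriptome was measured by RNA-seq in embryoid bodies (EBs), the floating clusters that mouse embryonic stem cells (mESCs) form as they differentiate after withdrawal of the cytokine LIF. WT EBs were set against EBs of mESCs lacking the promoter of *Gm11549*, the gene of the micropeptide NEMEP (promoter KO), to ask which transcripts depend on this locus in differentiating cells. Both genotypes were of strain 129/Ola, were cultured in serum without LIF or other treatment and were harvested at day 3, with 2 samples of each genotype, called by genotype and replicate number (WT 1 or promoter KO 2, for example). Where a pair of values is given for a genotype, sample 1 comes before sample 2. The promoter was deleted by CRISPR/Cas9 and the edited lines were grown from single sorted cells, so a promoter KO line is a clone, and the labels do not say which clone each sample came from. Values are in FPKM, which divides the fragments of a gene by its transcript length and by the mapped fragments of the sample, so levels of different genes can be compared per length.

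Glycolysis converts glucose to pyruvate. Hexokinase phosphorylates glucose on entry, phosphofructokinase carries out the committed and most regulated step, aldolase splits fructose bisphosphate into triose phosphates, and lactate dehydrogenase interconverts pyruvate and lactate. The isozymes of a step catalyse the same reaction but differ in kinetics, regulation and tissue distribution, and pluripotent cells are known for a high rate of glycolysis that is remodelled as they differentiate.

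The targeted gene was checked before the isozymes. *Gm11549* stood at 0.750 and 0.522 FPKM in the WT samples, was listed at 0 in promoter KO 1 and stood at 0.0659 FPKM in promoter KO 2. Both promoter KO samples were thus below both WT samples, although the gene was below 1 FPKM in all 4 samples and was not tested. The labels call the cells mesendoderm derived from ES cells, and the 8 mesendoderm markers examined (*T*, *Eomes*, *Mixl1*, *Gsc*, *Foxa2*, *Evx1*, *Mesp1* and *Lhx1*) were measured in every sample. Their summed levels stood at 777 and 1002 FPKM in WT and at 148 and 314 FPKM in promoter KO, *T*, the gene of Brachyury, having the highest mean over the 4 samples, although *Eomes* exceeded it in promoter KO 1. The defining markers were therefore present in the WT EBs and lower in both promoter KO samples, none of the 8 being listed at 0.

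Over all genes the FPKM sums were 677777 and 696928 in WT and 673951 and 679870 in promoter KO. From the lowest values of genes with 1 annotated transcript, and with fragments taken as 200 bases long, depth was estimated at about 24700000, 21900000, 21500000 and 20000000 fragments in WT 1, WT 2 and then promoter KO 1 and 2. The member with the lowest level in any sample, *Aldoc* in promoter KO 1, then rested on an estimated 120 to 200 fragments between the shortest and longest coding transcript. For *Hk1* in promoter KO 2 the estimate ran from 12 to 880 fragments, the lower bound resting on a coding transcript of 254 bases. The 9 isozymes together held 0.888% and 0.925% of all FPKM in WT, compared with 0.592% and 0.621% in promoter KO.

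Differences between genotypes were tested with limma on log2(FPKM + 1) over the 11941 genes that reached 1 FPKM in 2 or more samples, and a gene was called at a Benjamini-Hochberg adjusted p under 0.05. All 9 isozymes passed this filter, and each was above 1 FPKM in all 4 samples. The isozymes and the gene lists below were chosen with earlier results of these data known. Their counts beside the share of all tested genes are therefore no independent support. In promoter KO, 4 of the 9 isozymes (*Pfkl*, *Aldoa*, *Aldoc* and *Ldha*) fell, where 1.89% of tested genes were called lower. By the same limma test 0 of the 9 were called higher, where 1.68% of tested genes were, and 1 (*Ldhb*) was higher at an unadjusted p under 0.05, where 15.0% of tested genes were higher and 15.6% lower. The number of isozymes higher at an unadjusted p under 0.05 was 0 without WT 1 and 0 without promoter KO 1. The genotypes did not overlap, with promoter KO lower, in 5 of the 9 isozymes against 32.4% of tested genes, and with promoter KO higher in 1 of the 9 against 32.9%. The median log2 fold change of the 9 isozymes was -0.18 on the log2(FPKM + 1) scale, and that of all tested genes was 0.00417. The number called lower by limma was 3 without promoter KO 2, and it was 0 without WT 1, without WT 2, without promoter KO 1, without the trend in limma or without the filter, the unadjusted p of the 4 genes being under 0.05 in each of these fits. In these bulk samples, fewer cells of a type cannot be told apart from less RNA per cell.

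**Figure D1:**
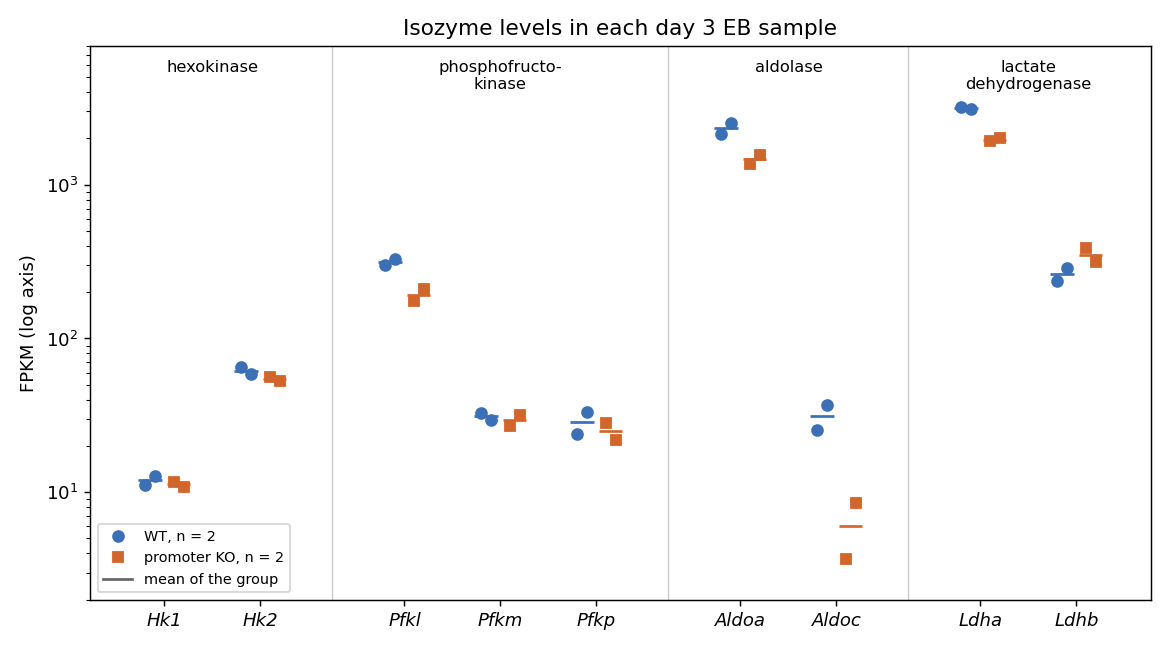
FPKM of the 9 isozymes on a log axis, grouped by step, with circles for the WT samples, squares for the promoter KO samples (n = 2 each) and short lines for the group means. The squares of *Hk2*, *Pfkl*, *Aldoa*, *Aldoc* and *Ldha* lie below the circles, and those of *Ldhb* lie above them.

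In WT EBs the order of levels ran from *Ldha* through *Aldoa*, *Pfkl*, *Ldhb*, *Hk2*, *Aldoc*, *Pfkm* and *Pfkp* to *Hk1*. *Ldha* ranked 34 and *Aldoa* ranked 49 by mean WT level among the tested genes, whereas *Hk1* ranked 5953. Neighbours in this order whose WT samples overlapped were *Aldoc* with *Pfkm*, and *Pfkm* with *Pfkp*. In promoter KO EBs the samples of *Ldhb* lay above those of *Pfkl*, and those of *Aldoc* were the lowest of the 9, so both places in the order differed from WT, while *Pfkm* and *Pfkp* overlapped again.

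The isozyme share was taken as the percentage that each gene held of the summed FPKM of the listed genes of its step. Shares compare transcripts, not enzyme activity. Shares, step sums and isozyme ratios were compared by two-sided exact permutation tests over the samples, which cannot give a p below 0.333 with 2 samples against 2, so the values and their spread are given and no share, sum or ratio could pass a threshold of 0.05.

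At the hexokinase step, *Hk2*, which is expressed in muscle, in embryos and in proliferating cells, was the main transcript. *Hk2* (chr6:82725025-82774454, minus strand, in the RefSeq annotation of GRCm38.p6, from which all positions are taken) was measured at 64.8 and 58.8 FPKM in WT and at 56.3 and 52.6 FPKM in promoter KO. Both promoter KO samples were below both WT samples by a small margin, and the difference did not pass the test (log2 fold change -0.18, 95% interval -0.40 to 0.05, limma adjusted p = 0.241). With 1 sample left out this log2 fold change ran from -0.25 to -0.11. *Hk1* (chr10:62268855-62379920, minus strand), the form found in most tissues, was measured at 11.1 and 12.8 FPKM in WT and at 11.7 and 10.8 FPKM in promoter KO. The genotypes overlapped for *Hk1*, with WT 1 between the promoter KO samples (log2 fold change -0.08, interval -0.39 to 0.22, adjusted p = 0.686). Its log2 fold change was -0.18 without WT 1 and 0.014 without WT 2.

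*Hk2* held 85.4% and 82.1% of the hexokinase sum in the WT samples, compared with 82.8% and 83.0% in promoter KO. Both promoter KO samples lay between the WT samples, so the mean shares of 83.7% ± 2.31 in WT and 82.9% ± 0.0894 in promoter KO (SD, n = 2 each) did not separate over the listed pair. The hexokinase sum was 73.8 ± 3.01 FPKM in WT, set against 65.7 ± 3.26 FPKM in promoter KO (SD, n = 2), a log2 ratio of -0.17 with no overlap of the samples. Of the other hexokinase genes examined, *Hk3* stayed at or below 0.0367 FPKM in every sample. *Hkdc1*, a further gene of the hexokinase family, was measured at 0.245 and 0.0413 FPKM in WT and at 1.44 and 2.12 FPKM in promoter KO. It was higher in both promoter KO samples (log2 fold change 1.28, interval 0.79 to 1.76, limma adjusted p = 0.0407), a size that depends on the pseudocount, being 3.06 with 0.1 FPKM in place of 1. The gene passed the filter through the promoter KO samples alone, the group in which it was high, so its call is no independent support. The call was lost without any 1 of the 4 samples (adjusted p from 0.0604 to 0.209), without the trend (0.0562) and without the filter (0.142), over a range of 0.0281 to 0.209 in the 10 alternatives that tested it. *Hk3* and *Hkdc1* together held at most 3.28% of the step in any sample, and with both in the denominator the *Hk2* share was 85.1% and 82.0% in WT, compared with 81.1% and 80.2% in promoter KO. On that denominator the genotypes no longer overlapped, with a difference of -2.86 percentage points in place of -0.833 (exact p = 0.333 in place of 1).

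At the phosphofructokinase step, the liver-type gene *Pfkl* was the main transcript and the only called gene of its step. *Pfkl* (chr10:77986947-78009807, minus strand) was measured at 299 and 328 FPKM in WT and at 175 and 209 FPKM in promoter KO. The promoter KO samples were well below both WT samples, and the mean fell from 313 ± 20.5 FPKM to 192 ± 23.9 FPKM (SD, n = 2 each), to 61.3% of WT. The log2 fold change was -0.71 with a standard error of 0.11 and an interval of -0.97 to -0.44 (limma adjusted p = 0.0391).

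The muscle-type gene *Pfkm* (chr15:98092589-98132447, plus strand) was measured at 32.8 and 29.7 FPKM in WT and at 26.9 and 31.9 FPKM in promoter KO. Its genotypes overlapped, with promoter KO 2 between the WT samples (log2 fold change -0.09, interval -0.38 to 0.20, adjusted p = 0.634). Without promoter KO 1 the log2 fold change was 0.029, and without promoter KO 2 it was -0.21. The platelet-type gene *Pfkp* (chr13:6579874-6649060, minus strand) was measured at 23.9 and 33.2 FPKM in WT and at 28.3 and 21.8 FPKM in promoter KO. Here too the genotypes overlapped, the highest and lowest samples being WT 2 and promoter KO 2 (log2 fold change -0.18, interval -0.65 to 0.29, adjusted p = 0.558). This log2 fold change was -0.41 without WT 1 but 0.052 without WT 2 and 0.0058 without promoter KO 2. The exons of *Pfkp* share 748 bases with those of *Pitrm1* on the opposite strand, and *Pitrm1* was measured at 50.1 to 62.3 FPKM. Whether counting used strand is not given in the sources used here, so the level of *Pfkp* is uncertain to the extent that reads of *Pitrm1* could be counted with it. Exons of *Pfkm* likewise share 341 bases with *Gm26513*, a non-coding gene annotated on the same strand.

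*Pfkl* held 84.0% and 83.9% of the phosphofructokinase sum in the WT samples, compared with 76.0% and 79.6% in promoter KO. Its share was lower in both promoter KO samples, with means of 84.0% ± 0.103 in WT and 77.8% ± 2.49 in promoter KO (SD, n = 2), a difference of -6.17 percentage points (exact p = 0.333). *Pfkm* held 9.23% and 7.60% in WT, compared with 11.7% and 12.1% in promoter KO. The *Pfkm* share was thus higher in both promoter KO samples, by 3.49 points on average, although its FPKM was not. *Pfkp* held 6.73% and 8.50% in WT, compared with 12.3% and 8.29% in promoter KO, so its share overlapped, with promoter KO 1 alone above WT. The summed level of the step was 373 ± 24.8 FPKM in WT, set against 247 ± 22.8 FPKM in promoter KO (SD, n = 2), or 66.0% of WT.

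**Figure D2:**
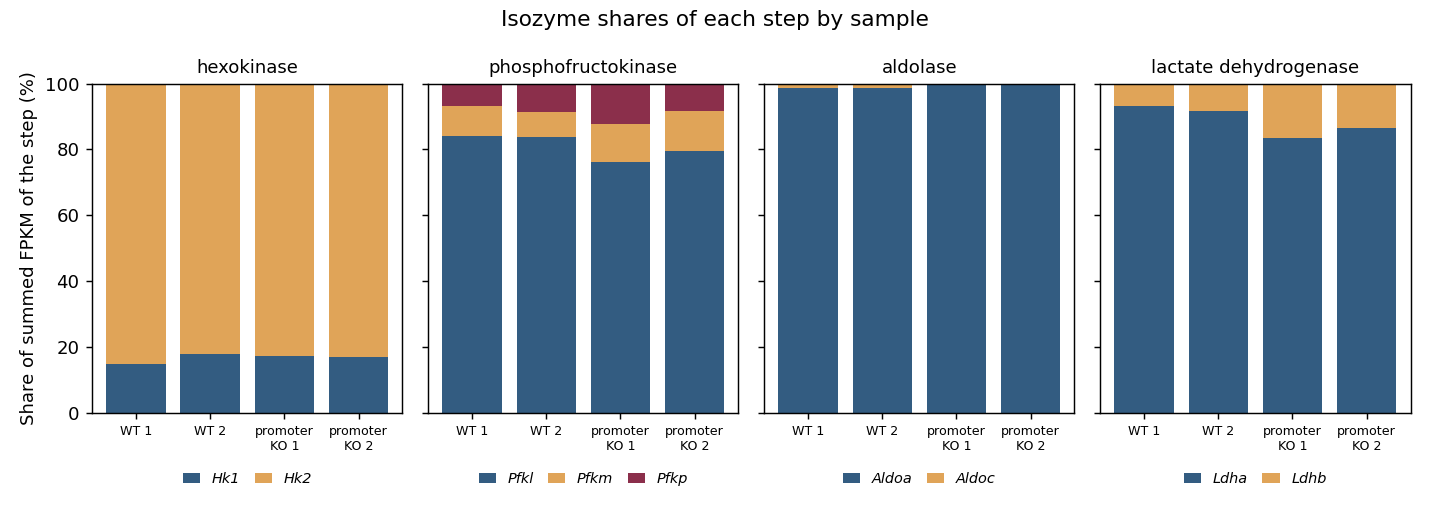
Stacked bars give, for each sample, the percentage of the summed FPKM of a step held by each listed isozyme. *Pfkl* and *Ldha* take smaller shares in both promoter KO samples, the hexokinase shares of promoter KO lie between those of the WT samples, and *Aldoa* fills at least 98.56% of the aldolase bar in every sample.

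At the aldolase step both isozymes fell, and the minor one fell further. *Aldoa* (chr7:126795234-126800994, minus strand), the form of muscle and of many other tissues, was measured at 2125 and 2539.7 FPKM in WT and at 1372 and 1567 FPKM in promoter KO. All WT values were above all promoter KO values, with means of 2332 ± 294 FPKM and 1469 ± 138 FPKM (SD, n = 2 each). The log2 fold change was -0.66 with a standard error of 0.12 and an interval of -0.95 to -0.38 (limma adjusted p = 0.0467), and the call held in 2 of 11 alternatives, a pseudocount of 0.1 and the replicate block. It was lost under median centring (0.0528), quantile normalization (0.0544), a filter on mean level (5 FPKM, 0.0511), no trend in limma (0.074), no filter (0.146) and each sample left out (0.0536 to 0.216), over a range of adjusted p of 0.00925 to 0.216. *Aldoc* (chr11:78323073-78327781, plus strand), known as the brain-type aldolase, was measured at 25.5 and 37.1 FPKM in WT and at 3.66 and 8.46 FPKM in promoter KO. The promoter KO samples were far below the WT samples, with means of 31.3 ± 8.21 FPKM in WT, set against 6.06 ± 3.40 FPKM in promoter KO (SD, n = 2), the lowest percentage of WT among the 9 isozymes at 19.4%. The log2 fold change was -2.26 with a standard error of 0.35 and an interval of -3.11 to -1.41 (adjusted p = 0.0404). It was -2.77 without promoter KO 2 and -1.75 without promoter KO 1.

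*Aldoc* held 1.19% and 1.44% of the aldolase sum in the WT samples, compared with 0.266% and 0.537% in promoter KO. The small *Aldoc* share was lower in both promoter KO samples, at 0.401% ± 0.192 against 1.31% ± 0.180 in WT (SD, n = 2), a difference of -0.911 points (exact p = 0.333). The aldolase sum therefore followed *Aldoa*, at 2363 ± 302 FPKM in WT, set against 1475 ± 141 FPKM in promoter KO (SD, n = 2), or 62.4% of WT. *Aldoart1* and *Aldoart2* were listed at 0 in every sample. The GENCODE annotation of GRCm38 holds 2 genes under the symbol *Aldoa*, and which of them its row covers is uncertain.

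At the lactate dehydrogenase step the isozymes lay on opposite sides of WT. *Ldha* (chr7:46842274-46855627, plus strand), which encodes the muscle-type subunit, was measured at 3200.3 and 3118 FPKM in WT and at 1931 and 2006 FPKM in promoter KO. The samples of each genotype were close together and far from the other genotype, and the mean fell from 3159 ± 58.0 FPKM to 1969 ± 53.2 FPKM (SD, n = 2 each), to 62.3% of WT. The log2 fold change was -0.68 with a standard error of 0.07 and an interval of -0.86 to -0.51, and its adjusted p of 0.0244 by limma was the smallest among the 9 isozymes. *Ldhb* (chr6:142490249-142507957, minus strand), which encodes the heart-type subunit, was measured at 236 and 287 FPKM in WT and at 385 and 312 FPKM in promoter KO. Both promoter KO samples were above both WT samples, and *Ldhb* was the only one of the 9 isozymes with a positive log2 fold change (0.41, standard error 0.14, interval 0.08 to 0.75), but it was not called (limma adjusted p = 0.114). Its log2 fold change was 0.27 without WT 1 and 0.26 without promoter KO 1.

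*Ldhb* held 6.88% and 8.42% of the lactate dehydrogenase sum in the WT samples, compared with 16.6% and 13.5% in promoter KO. Its share was higher in both promoter KO samples, at 15.0% ± 2.24 against 7.65% ± 1.09 in WT (SD, n = 2), a difference of 7.40 points (exact p = 0.333). The lactate dehydrogenase sum was 3421 ± 22.4 FPKM in WT, set against 2317 ± 1.60 FPKM in promoter KO (SD, n = 2), or 67.7% of WT. *Ldhc*, the testis form, was at or below 1.67 FPKM in every sample and *Ldhal6b* at or below 0.301 FPKM, and both together held at most 0.0514% of the step. BLAST found 5 annotated pseudogenes with at least 95% identity over at least 200 bases of an *Ldha* transcript, 1 for *Ldhb* and 1 for *Aldoa*, and how reads shared with such copies were assigned is not given in the sources used here.

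The ratio of isozymes within a sample compares their changes directly, since scaling of a whole sample cancels. The log2 ratio of *Ldhb* to *Ldha* was -3.76 and -3.44 in WT, compared with -2.33 and -2.68 in promoter KO. *Ldha* FPKM was thus 13.5 and 10.9 times that of *Ldhb* in WT but 5.01 and 6.43 times in promoter KO, a log2 difference of 1.10 with a pooled SD of 0.24. The log2 ratio of *Aldoc* to *Aldoa* was -6.38 and -6.10 in WT, compared with -8.55 and -7.53 in promoter KO. It was lower in both promoter KO samples, by a log2 difference of -1.80 with a pooled SD of 0.53. Both ratios therefore separated the genotypes by more than the spread between samples, in opposite directions.

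The log2 ratio of *Pfkm* to *Pfkl* was -3.19 and -3.46 in WT, compared with -2.70 and -2.71 in promoter KO. The promoter KO samples nearly coincided and lay above both WT samples, by 0.62 on average with a pooled SD of 0.14. The log2 ratio of *Pfkp* to *Pfkl* was -3.64, -3.30, -2.63 and -3.26 in WT 1, WT 2, promoter KO 1 and 2, so promoter KO 2 lay just above WT 2 and the mean difference of 0.53 compares with a pooled SD of 0.36. That difference was 0.21 without promoter KO 1 and 0.84 without promoter KO 2. The log2 ratio of *Hk2* to *Hk1* was 2.54 and 2.20 in WT, compared with 2.27 and 2.28 in promoter KO, with both promoter KO samples between the WT samples. For the 4 ratios that did not overlap between genotypes the exact p was 0.333 and the value adjusted over the 5 ratios was 0.417, and for *Hk2* to *Hk1* the exact p was 1.

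**Figure D3:**
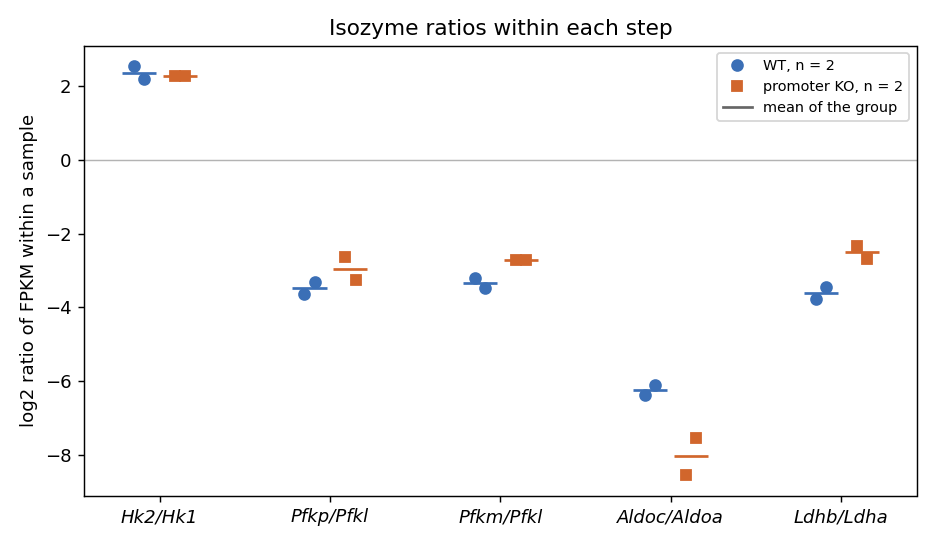
The log2 ratio of FPKM of isozyme pairs within each sample, with circles for WT, squares for promoter KO (n = 2 each) and short lines for the group means. Squares lie above circles for *Pfkp/Pfkl*, *Pfkm/Pfkl* and *Ldhb/Ldha*, below them for *Aldoc/Aldoa*, and within their range for *Hk2/Hk1*.

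Promoters were compared for the steps in which the isozymes diverged most in ratio, aldolase and lactate dehydrogenase. RefSeq promoter windows of GRCm38.p6 were available for all 9 isozymes, 17 in all because several genes have more than 1 listed start. Each window held the 250 bases before its start and was searched on both strands for ACGTG, letters at the core of many hypoxia response elements. Not every gene start was covered, since *Ldha* begins at chr7:46842274 and has no window there. Among 32851 windows of the same length, 16.6% held ACGTG, and 6.02% held CACGTG, the E-box letters that contain ACGTG on both strands. Of the isozymes' windows, 6 held ACGTG, from *Hk2*, *Pfkm*, *Aldoa* and *Ldha*. The windows of *Ldha*, *Ldhb*, *Aldoa* and *Aldoc* that follow are read 5′ to 3′ on the strand of the gene, with every match to ACGTG on either strand in capitals. For genes with several starts the window with the most matches is shown, or the one listed before the others where none matched.
Ldha, chr7:46845554-46845803, plus strand: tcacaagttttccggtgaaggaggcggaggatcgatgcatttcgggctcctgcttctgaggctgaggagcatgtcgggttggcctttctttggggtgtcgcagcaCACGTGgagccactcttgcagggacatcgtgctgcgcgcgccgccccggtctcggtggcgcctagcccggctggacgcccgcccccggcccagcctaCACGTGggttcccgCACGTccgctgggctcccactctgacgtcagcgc
Ldhb, chr6:142507958-142508207, minus strand: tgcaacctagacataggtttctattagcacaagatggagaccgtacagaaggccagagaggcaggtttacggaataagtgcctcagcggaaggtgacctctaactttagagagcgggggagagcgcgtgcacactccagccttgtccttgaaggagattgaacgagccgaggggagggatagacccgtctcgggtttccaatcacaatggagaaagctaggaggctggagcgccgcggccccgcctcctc
Aldoa, chr7:126799255-126799504, minus strand: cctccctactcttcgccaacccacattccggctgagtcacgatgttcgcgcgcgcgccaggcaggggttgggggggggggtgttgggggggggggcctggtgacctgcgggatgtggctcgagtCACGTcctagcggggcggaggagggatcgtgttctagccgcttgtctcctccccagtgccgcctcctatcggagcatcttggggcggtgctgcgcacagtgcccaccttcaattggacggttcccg
Aldoc, chr11:78322823-78323072, plus strand: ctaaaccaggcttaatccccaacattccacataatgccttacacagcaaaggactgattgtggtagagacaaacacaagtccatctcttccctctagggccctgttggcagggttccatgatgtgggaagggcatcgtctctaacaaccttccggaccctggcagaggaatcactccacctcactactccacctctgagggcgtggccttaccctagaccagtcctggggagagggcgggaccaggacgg

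The *Ldha* window held 3 separate stretches, 2 of them CACGTG, and its other window held 0 matches. The *Ldhb* window held 0 matches. *Aldoa* held 1 match in the window shown, as did a further window that overlaps it, and 0 in the remaining window, whereas both windows of *Aldoc* held 0 matches. Of the other isozymes, *Pfkl*, which fell, held 0 matches. Among those not called, *Hk2* held 2 separate stretches in its window, *Pfkm* held 2 over 2 of its 4 windows, 1 of them CACGTG, and *Hk1* and *Pfkp* held 0. Only ACGTG was searched for, so 0 matches refers to these letters alone. The letters GCGTG, which occur in the *Ldhb* and *Aldoc* windows shown, were not counted. A match describes the letters in these windows and says nothing about binding.

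Among the 11 other glycolysis enzymes examined, all tested, 2 fell in promoter KO, where 1.89% of tested genes were called lower, and 0 were called higher by limma, with a median log2 fold change of -0.14. *Pgk1*, the phosphoglycerate kinase that makes ATP, was measured at 1607 and 1789 FPKM in WT and at 841 and 1010.4 FPKM in promoter KO. *Tpi1*, triose phosphate isomerase, was measured at 949 and 925 FPKM in WT and at 694 and 737 FPKM in promoter KO. Both genes were lower in both promoter KO samples, with log2 fold changes of -0.88 (limma adjusted p = 0.0340, and 0.0075 to 0.183 over the alternatives) and -0.39 (adjusted p = 0.0494, and 0.0303 to 0.235). Leaving out WT 1, WT 2 or promoter KO 1 ended both calls, and leaving out promoter KO 2 ended that of *Tpi1*. Both calls were also lost without the trend (adjusted p = 0.0638 for *Pgk1* and 0.0972 for *Tpi1*) and without the filter (0.143 and 0.146), and that of *Tpi1* with a pseudocount of 0.1 (0.051), a filter at a mean of 5 FPKM (0.0541) and median centring (0.0574). Of these 11 enzymes, 8 did not overlap between genotypes with promoter KO lower, against 32.4% of tested genes, 1 did not overlap with promoter KO higher, against 32.9%, and 2 overlapped.

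**Figure D4:**
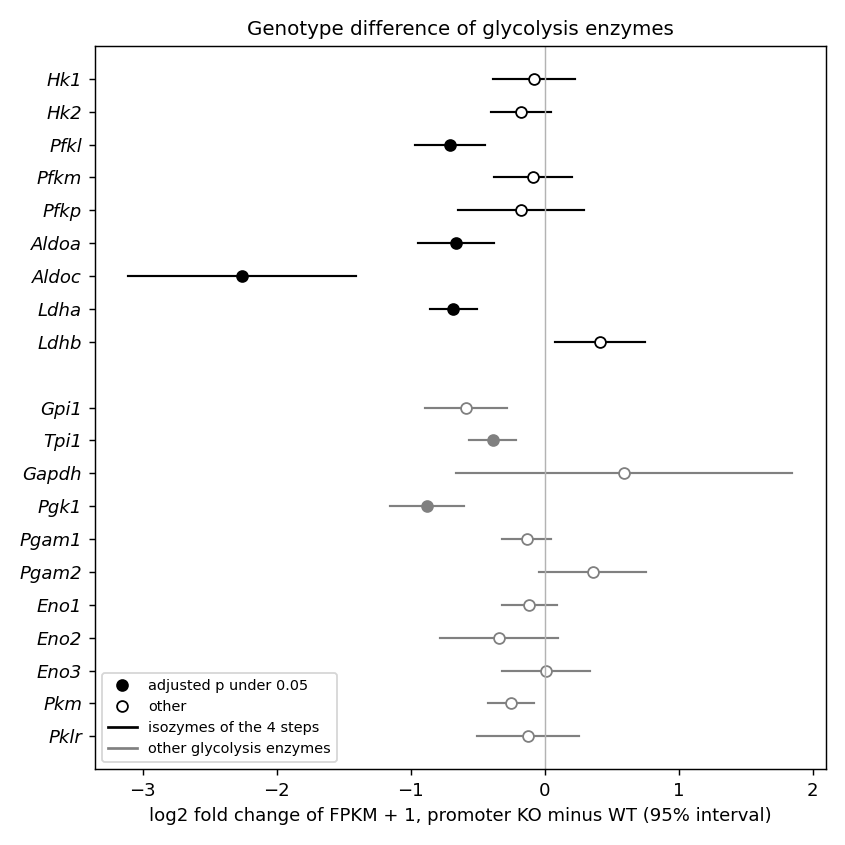
Log2 fold change of FPKM + 1 (promoter KO minus WT) with 95% intervals from limma, for the 9 isozymes in black and 11 other glycolysis enzymes in grey, filled where the adjusted p was under 0.05. Filled points are *Pfkl*, *Aldoa*, *Aldoc* and *Ldha* among the isozymes and *Tpi1* and *Pgk1* among the others, all left of 0.

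Markers of cell types also differed between genotypes, in a direction that depended on the list. Of the 8 mesendoderm markers, 5 were called lower and 0 higher in promoter KO, where 1.89% of tested genes were called lower and 1.68% higher, with a median log2 fold change of -2.46. Against the same shares, of 10 pluripotency markers 0 were called lower and 2 higher (median 0.88), with summed levels of 2818 and 2586 FPKM in WT, against 4896 and 3744 FPKM in promoter KO, and *Pou5f1*, the gene of OCT4, had the highest mean over the 4 samples, although *Dppa5a* exceeded it in promoter KO 1. *Nanog* lay the other way, at 140 and 113 FPKM in WT, against 94.1 and 98.7 FPKM in promoter KO, and was not called (limma adjusted p = 0.0974). Of 13 extraembryonic endoderm markers, again beside 1.89% and 1.68% of tested genes, 1 was called lower and 7 higher (median 1.21), with summed levels of 135 and 179 FPKM in WT, against 258 and 319 FPKM in promoter KO, and *Sparc*, a basement membrane gene, the most abundant in every sample. Of those 7, *Sox7* and *Cubn* were below 1 FPKM in both WT samples and passed the filter through the promoter KO samples alone, so the count and median of this list are no independent support. Without the filter 0 genes were called in either direction, so the marker calls of these lists were lost. None of these 31 markers was listed at 0 in any sample, and the part of such cells in the isozyme differences was not tested.

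Markers of the tissues for which some isozymes are named were low. All 5 neuroectoderm markers were below 1 FPKM in every sample, with *Zic1* the highest by mean over the 4 samples (*Pax6* exceeded it in WT 2) and sums of 0.544 and 0.433 FPKM in WT, against 1.83 and 1.63 FPKM in promoter KO. Of 6 markers of skeletal and cardiac muscle, 3 were below 1 FPKM in every sample, and the list summed to 8.67 and 20.9 FPKM in WT, against 3.78 and 13.3 FPKM in promoter KO, with *Actc1*, cardiac actin, the most abundant and the genotypes overlapping. All 4 erythroid and blood markers were below 1 FPKM in every sample, with a sum of at most 0.512 FPKM, and *Hba-x*, the highest by mean, was listed at 0 in all samples but promoter KO 2.

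The genes whose pattern over the 4 samples was most like that of each isozyme were taken by the Euclidean distance of mean-centred log2(FPKM + 1) among 8556 tested genes with a mean of at least 5 FPKM. For *Ldha* they were *Khk*, which encodes ketohexokinase (distance 0.02), *Snrnp35* (0.06) and *Fam89a* (0.09), for *Aldoa* *Rhoc* (0.03), *Tldc1* (0.05) and *Pddc1* (0.05), and for *Pfkl* *Rnf13* (0.04), *Adamts10* (0.06) and *Dis3l2* (0.06). For *Aldoc* they were *Pcdh7* (0.18), *T* (0.22) and *H2-Ab1* (0.30), at larger distances than for any other of the 9 isozymes. *T* was measured at 306 and 448 FPKM in WT and at 50.5 and 127 FPKM in promoter KO, so like *Aldoc* it was highest in WT 2 and lowest in promoter KO 1. For *Ldhb* the nearest were *Pmaip1*, *Churc1* and *BC024978*, for *Hk2* *Nr1h2*, *Snx7* and *Arrdc1*, for *Hk1* *Zfyve27*, *Mcph1* and *Igbp1*, for *Pfkm* *Ankrd49*, *Fam117a* and *Setd7*, and for *Pfkp* *Gm1943*, *Tagln2* and *Rtkn*. With 4 samples many genes share such a pattern by their genotype difference alone.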

How the data were processed

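RNA-seq of day 3 EBs was analysed from the FPKM values that the authors deposited, 1 set of 24347 gene rows per sample, already normalized for transcript length and library size. The study's methods name TopHat, Cufflinks and GENCODE annotation on mm10 (GRCm38) and call the unit RPKM, whereas the submitters' processing notes name HISAT2 2.1.0, Cufflinks and Cuffnorm, so the aligner is uncertain. Reads were not used here. Genes were matched by symbol, and positions and promoters came from RefSeq (GRCm38.p6), the same build.

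Log2(FPKM + 1) was fitted in R 4.3.3 by limma 3.58.1 (lmFit, eBayes with trend, genotype as the only term) for the 11941 genes reaching 1 FPKM in 2 or more of 4 samples, with Benjamini-Hochberg adjustment over all of them. The pseudocount understates fold changes of low genes. Shares, sums and ratios used FPKM without a pseudocount, in Python 3.11.15 with numpy 2.4.6, pandas 2.3.3 and scipy 1.17.1, and figures were drawn with matplotlib 3.10.9. Copies were found with BLAST 2.17.0 against GENCODE transcripts of GRCm38, and depth was estimated as described beside the values. The fit and the depth estimate were tested on simulated data, and no outcome of that step is given here. Alternatives were a pseudocount of 0.1, other filters, no trend, median centring, quantile normalization, the replicate block and each sample left out, and for shares, sums and ratios also other denominators, scaling and a pseudocount of 1.

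The isozymes and lists were chosen with earlier results of these data known. Named genes are the 9 isozymes, other isozymes of the steps (some are not reported here), called genes among other glycolysis enzymes, *Gm11549*, the most abundant gene of each marker list, the mesendoderm list in full and the 3 genes nearest in pattern to each isozyme. *Sox7*, *Cubn*, *Dppa5a*, *Nanog*, *Pax6*, *Pitrm1* and *Gm26513* fall outside this rule and were named after their values or positions were seen. The study calls the samples biological replicates but the labels do not say that they came from separate cultures, so p-values measure the spread between these samples.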

Additional observations from a re-analysis of the deposited data

How the results depend on the processing

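With 2 samples a genotype, calls depended on the fit, the filter, the scaling and single samples. The number of isozymes called lower was 4 of 9 as reported and 0 with limma without the trend or with no filter beyond a value above 0, where 4 kept an unadjusted p under 0.05, and it ranged from 0 to 3 when 1 sample was left out, the lone sample of a genotype then being assumed to vary like the other genotype. Tested genes called lower and higher, 226 and 201 as reported, numbered 27 and 55 without the trend, 108 and 95 with a filter at a mean of 5 FPKM, where fewer genes were tested, 126 and 157 after median centring, and 0 and 0 without the filter (1982 and 2077 at an unadjusted p under 0.05). Leaving out 1 sample gave 0 to 248 lower and 0 to 238 higher. The signs of some small estimates changed. With 1 sample left out, the log2 fold change ranged from -0.18 to 0.014 for *Hk1* (positive without WT 2), from -0.21 to 0.029 for *Pfkm* (positive without promoter KO 1) and from -0.41 to 0.052 for *Pfkp* (positive without WT 2 or promoter KO 2), the difference in the *Hk2* to *Hk1* log2 ratio from -0.27 to 0.080 and that in the *Hk2* share from -2.46 to 0.799 points (both positive without WT 1). The cause was not tested. *Pfkl*, *Aldoa*, *Aldoc* and *Ldha* had a negative log2 fold change in all 11 alternatives each, with adjusted p from 0.0112 to 0.214, 0.00925 to 0.216, 0.00722 to 0.206 and 0.0092 to 0.142. The labels link samples across genotypes by replicate number alone. Deviations of same-numbered samples correlated at 0.0385, which does not settle whether they were handled together. The replicate block gave 667 genes lower and 535 higher, 4 of them lower isozymes, and the standard error of *Aldoc* was 0.157 with it and 0.348 without it. Cufflinks values carry no counts, so depth is an estimate, and with 2 samples against 2 no single share, sum or ratio can pass an exact test.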
